A study of Mus musculus with 24 samples.

Results

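Sodium pumps and cation-chloride cotransporters are described here through 4 genes, Atp1b1, Atp1b2, Slc12a2 and Slc12a5, in mouse cortex after stroke. The genes were chosen by symbol for their part in ion gradients and oedema, and all 4 were found among the 14769 gene symbols of the deposited tables. The cortex came from male mice of 3 to 4 months, all given the strain C57BL/6N-Cdr1asem1Nikr in the labels. Every animal had a filament block of the middle cerebral artery for 1 h and then 1 day of reperfusion, so no group was free of surgery. WT animals were wild type and KO animals lacked ciRS-7, also named Cdr1as, a circular RNA that binds the microRNA miR-7. Each of 12 animals gave a CL and a PI sample of cortex, marks that the labels do not spell out, which made 4 groups of 6 libraries, named by side and genotype. The design asked how PI differed from CL within a genotype, and how KO differed from WT within CL and within PI.

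The sodium pump (Na,K-ATPase) spends ATP to carry sodium out of the cell and potassium in, and so holds the gradients on which most other ion transport runs. Its alpha subunit carries out the transport, and its beta subunit, a glycoprotein, is needed for the pump to mature and reach the membrane. Atp1b1 encodes the beta subunit β1, abundant in neurons, and Atp1b2 encodes β2, best known from astrocytes as the adhesion molecule on glia. Slc12a2 encodes NKCC1, which brings sodium, potassium and chloride into the cell and is found in glia, endothelium and choroid plexus as well as in neurons. Slc12a5 encodes KCC2, the neuronal exporter of potassium and chloride. In mature neurons the balance of NKCC1 and KCC2 sets cell chloride, and with it the sign of the current through GABA-A receptors. When pumps run down after ischemia, sodium, chloride and water enter cells, a form of brain swelling known as cytotoxic oedema.

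In GRCm38 with GENCODE M21, Atp1b1 (ENSMUSG00000026576) lies on chromosome 1 from 164437109 to 164458355 on the minus strand, and its longest coding transcript has 6 exons. Its 3′ end overlaps Nme7 on the opposite strand, and the use of strand in counting was not given in the sources used here, so a few of its reads could belong to either gene. Nme7 itself differed between PI and CL by 0.052 (log2 scale, SE 0.094) in WT and by 0.010 (SE 0.12) in KO, with neither difference past the test. Atp1b2 (ENSMUSG00000041329) lies on chromosome 11 from 69599736 to 69605942 on the minus strand, with 7 exons. Slc12a5 (ENSMUSG00000017740) lies on chromosome 2 from 164960802 to 164999731 on the plus strand, with 26 exons.

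Since the KO animals lacked a miR-7 binding RNA, the longest annotated 3′ UTR of each gene was searched for the heptamer GTCTTCC, which pairs with the miR-7 seed. The mature miR-7 sequences of RefSeq are shown with the seed (bases 2 to 8) in capitals, and miR-7a-5p and miR-7b-5p share it.
mmu-miR-7a-5p: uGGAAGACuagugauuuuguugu
mmu-miR-7b-5p: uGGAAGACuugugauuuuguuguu
Atp1b2 held 2 matches in a 3′ UTR of 1512 bases, at bases 1060 and 1386 of the UTR, shown with the match in capitals.
Atp1b2, base 1060: tcactaagGTCTTCCctttctgc
Atp1b2, base 1386: gtatccagGTCTTCCtgcccctt
The 3′ UTRs of Atp1b1 (1167 bases), Slc12a2 (2770 bases) and Slc12a5 (2260 bases) held 0 matches. Over 21022 genes, 11.9% held at least 1 match, at a median UTR length of 961 bases. A match is a run of letters and not a shown binding site.

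Promoter windows from RefSeq (build GRCm38.p6), up to 250 bases before a start and free of annotated exon, are shown for Atp1b1 and Slc12a5. Atp1b2 had no entry. Capitals mark the GC box, GGGCGG on either strand.
Atp1b1, chr1:164458356-164458605, minus strand: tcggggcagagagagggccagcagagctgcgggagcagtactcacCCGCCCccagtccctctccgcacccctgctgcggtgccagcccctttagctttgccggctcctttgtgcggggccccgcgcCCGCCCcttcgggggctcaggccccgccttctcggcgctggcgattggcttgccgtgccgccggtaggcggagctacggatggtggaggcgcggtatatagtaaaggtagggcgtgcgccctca
Slc12a5, upstream start, chr2:164960596-164960801, plus strand: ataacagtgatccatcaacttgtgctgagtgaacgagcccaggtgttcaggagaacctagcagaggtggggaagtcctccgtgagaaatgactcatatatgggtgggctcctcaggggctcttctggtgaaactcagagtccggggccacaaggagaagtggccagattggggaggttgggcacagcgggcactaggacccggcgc
Slc12a5, downstream start, chr2:164967738-164967982, plus strand: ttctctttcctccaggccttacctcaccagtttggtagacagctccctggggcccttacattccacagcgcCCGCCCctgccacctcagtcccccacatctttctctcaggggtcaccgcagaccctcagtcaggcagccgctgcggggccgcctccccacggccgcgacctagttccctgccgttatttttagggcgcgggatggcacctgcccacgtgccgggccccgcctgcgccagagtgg
The Atp1b1 window held 2 GC boxes, and the downstream Slc12a5 window held 1, against 32.7% of 32851 windows with at least 1. The Atp1b1 window and the upstream Slc12a5 window each held CCAAT, found in 33.8% of windows on either strand. Only the upstream Slc12a5 window of these 3 held TGANTCA (6.75% of windows), and only the downstream window held CACGTG (6.02%). None of the 3 held GCGNGGGCG (4.70%), TATAAA (12.4%) or TGACG (17.8%). The GC content was 70.4%, 57.3% and 66.5% in the order printed, against a median of 52.4% over all windows. The 2 Slc12a5 windows are shorter than the rest, at 206 and 245 bases, which lowers their chance of a match.

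Effective depth, read from the step between low CPM values, was 5.27 to 10.5 megareads (M reads) per library, and 3 reads correspond to 0.285 to 0.569 CPM (read counts scaled to a common library total). The deposited values of the members lay far above that limit, and correspond to 463 reads or more in every library. Values are log2 CPM, and in every gene and group the 2 lowest of 6 values are equal and the 2 highest are equal, because outer values were replaced by the quartiles of the group before deposit. What the outermost libraries reached is therefore not known, and overlap, ranges and differences within an animal are given for the deposited values only. Levels are given as the mean of the 4 values that can be recovered, with the SE of this trimmed mean (n = 6 libraries). One library stood apart: CL KO replicate 6 was among the tied outer values in at least 89.8% of genes in both of its tables, where equal libraries would give 66.7%. PI WT replicate 4 was the next, at 81.1% and 81.2%. Cdr1as stood at 2610 to 3801 CPM in the WT libraries and at most 0.166 CPM in the KO libraries, under the limit of 3 reads. All 12 neuron markers and all 10 astrocyte markers could be read, while of 9 choroid plexus markers only Kl, Prlr and Enpp2 could be read and the other 6, Ttr included, were not analysed here.

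Per kilobase of transcript, Atp1b1 was by far the most abundant of the 4 genes and Slc12a2 the least in all 4 groups. In CL WT, in the table of the CL libraries, the log2 CPM per kilobase was 8.79 for Atp1b1, 5.04 for Slc12a5, 4.97 for Atp1b2 and 4.34 for Slc12a2. Slc12a5 and Atp1b2, the neighbours in this order, differed by less than the SE of Slc12a5 (0.087) in CL WT. In PI KO they were at 4.86 and 4.82, again within their SEs of 0.046 and 0.062. In CL KO, Slc12a5 stood at 5.18 and Atp1b2 at 4.98, a gap wider than the SE of either (0.060 and 0.058).

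**Figure D1:**
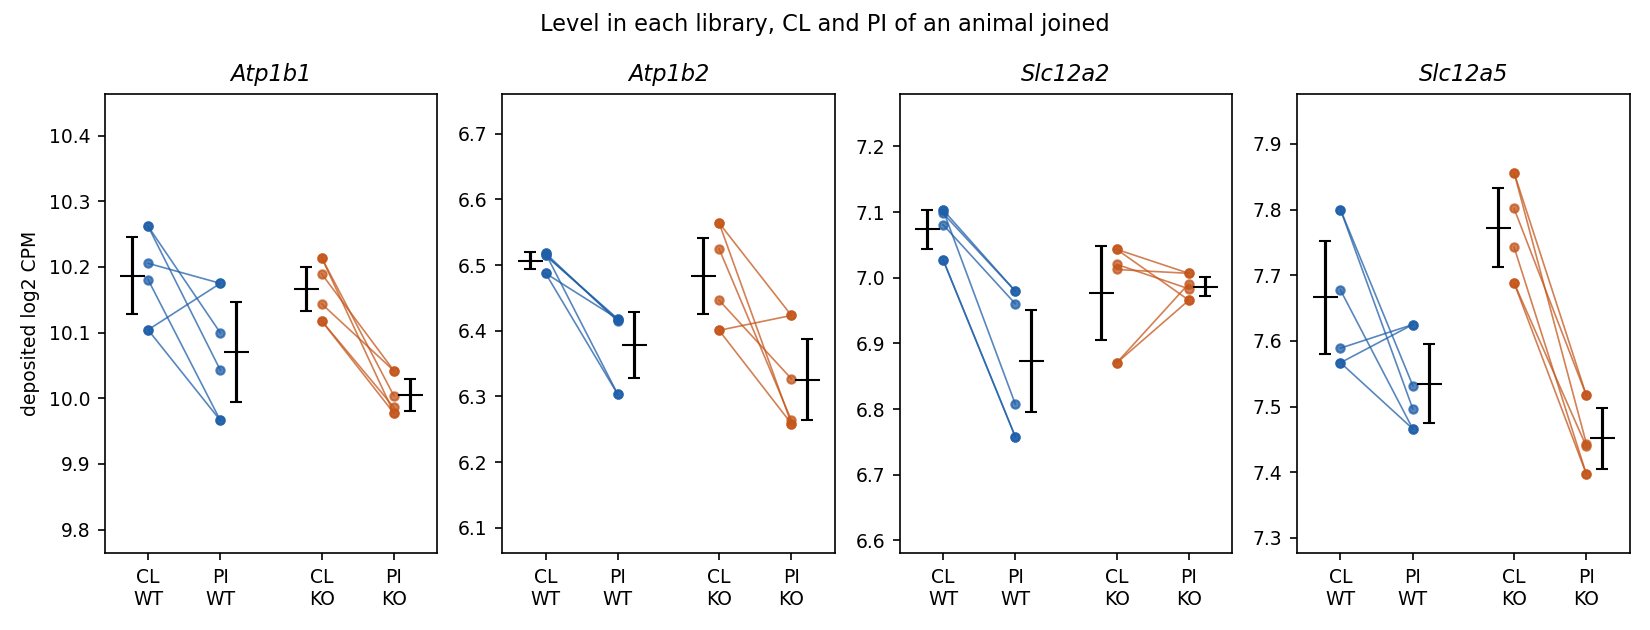
Deposited log2 CPM of the 4 genes in each library of the 2 tables that compare PI with CL, with the CL and PI libraries of an animal joined (blue WT, orange KO) and the trimmed mean ± SE in black. The deposited values of CL and PI do not overlap for Atp1b1 and Slc12a5 in KO and for Atp1b2 and Slc12a2 in WT, and each gene overlaps in the other genotype.

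The sodium pump subunit Atp1b1 was slightly lower in PI than in CL in both genotypes, by amounts that did not pass the test. In CL WT the lowest, median and highest deposited values were 10.10, 10.19 and 10.26 log2 CPM, and in PI WT they were 9.97, 10.07 and 10.18. The deposited WT values overlapped, with 4 of the 6 PI values below every CL value, and PI was lower in 5 of 6 animals. In CL KO the values were 10.12, 10.17 and 10.21, and in PI KO they were 9.98, 9.99 and 10.04. Here the deposited values did not overlap. Over all genes, 17.2% had deposited values that did not overlap and were lower in PI KO.

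The trimmed mean of Atp1b1 went from 10.19 ± 0.059 in CL WT to 10.07 ± 0.076 in PI WT (SE, n = 6 each), a log2 difference of -0.12 (95% interval -0.29 to 0.055, adjusted p = 0.417). In KO it went from 10.17 ± 0.034 to 10.005 ± 0.024, a difference of -0.16 (95% interval -0.27 to -0.049, adjusted p = 0.0674). The KO difference passed the threshold when each library was centred on its median gene (-0.20, adjusted p = 0.0231) and without PI KO replicate 4 (-0.18, adjusted p = 0.0407). It stayed uncalled in 11 of the 12 trimmed-mean tests that left out 1 library, with an adjusted p of up to 0.151.

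Atp1b2, the glial beta subunit, showed small differences in the same direction that also did not pass the test. In CL WT it lay at 6.49, 6.52 and 6.52 log2 CPM (lowest, median, highest), and in PI WT at 6.30, 6.42 and 6.42. The deposited WT values did not overlap. In WT, 16.3% of all genes were lower in PI without overlap. In CL KO it lay at 6.40, 6.49 and 6.56, and in PI KO at 6.26, 6.30 and 6.42, so the deposited KO values overlapped, and PI was lower in 5 of 6 animals. The log2 difference was -0.13 in WT (SE 0.061, 95% interval -0.26 to 0.0036, adjusted p = 0.224) and -0.16 in KO (SE 0.079, 95% interval -0.33 to 0.012, adjusted p = 0.238).

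The chloride importer Slc12a2 (ENSMUSG00000024597) lies on chromosome 18 from 57878678 to 57946821 on the plus strand, with 27 exons. It was lower in PI than in CL in WT and stood at about the same level on both sides in KO. In CL WT its values were 7.03, 7.09 and 7.10 log2 CPM (lowest, median, highest), and in PI WT they were 6.76, 6.88 and 6.98. The deposited PI WT values all lay below the deposited CL WT values, as for the 16.3% of genes given above. In CL KO its values were 6.87, 7.02 and 7.04, and in PI KO they were 6.97, 6.99 and 7.01. The deposited PI KO values lay inside the range of the CL KO values, and PI was lower in 4 animals and higher in 2.

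The log2 difference of Slc12a2 was -0.20 in WT (SE 0.074, 95% interval -0.36 to -0.040), a change of -12.9%, and did not pass the test (adjusted p = 0.111). With the animal as a block, the pairing that the labels give, the same difference was called (adjusted p = 0.0248). The share of all genes called by that blocked test is not given here, so this call has no background beside it. Deviations of the CL and PI libraries of an animal correlated at -0.0051 to 0.22 in WT. In KO the difference was 0.0099 (SE 0.070, 95% interval -0.14 to 0.16, adjusted p = 0.952). Its sign turned without CL KO replicate 1 or 6 (-0.041 in each case) and with libraries centred on the median gene (-0.018).

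The chloride exporter Slc12a5 fell in PI of the KO animals. In CL KO it lay at 7.69, 7.77 and 7.86 log2 CPM (lowest, median, highest), and in PI KO at 7.40, 7.44 and 7.52. The deposited PI KO values all lay below the deposited CL KO values, as for the 17.2% of genes given above. In WT it lay at 7.57, 7.63 and 7.80 in CL and at 7.47, 7.51 and 7.62 in PI. The deposited WT values overlapped, and PI was lower in 4 animals and higher in 2.

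In KO the trimmed mean of Slc12a5 went from 7.77 ± 0.060 to 7.45 ± 0.046 (SE, n = 6 each), a log2 difference of -0.32 (SE 0.070, 95% interval -0.47 to -0.17, adjusted p = 0.0128), a change of -19.9%. In WT it went from 7.67 ± 0.086 to 7.54 ± 0.060, a difference of -0.13 (SE 0.085, 95% interval -0.31 to 0.052, adjusted p = 0.388). The KO call held without any single library (adjusted p = 0.00644 to 0.0451), CL KO replicate 6 included (-0.29, adjusted p = 0.0172). It was lost with a prior variance that ignored expression level (adjusted p = 0.0675).

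Of the 4 genes, 1 was called between PI KO and CL KO, where 10.0% of 14338 genes were called (1440 genes, 732 higher and 708 lower). In the comparison of PI WT with CL WT, 0 of the 4 passed, where 10.6% of 14489 genes were called (1537 genes, 754 higher and 783 lower). There Slc12a2 alone of the 4 had an unadjusted p under 0.05, as did 23.9% of all genes. Limma on the deposited values as they stood called all 4, among far more genes than the 1537, as counted in the last section. That use of limma also called at least 1953 of 14489 genes in simulated data with no gene changed. With libraries centred on their median gene the split was 676 higher and 1174 lower in WT and 680 higher and 1143 lower in KO. The median log2 difference of the 4 genes was -0.13 in WT and -0.16 in KO, beside 0.011 and -0.00068 over all genes. Without CL KO replicate 6, the KO differences were -0.14 for Atp1b1, -0.13 for Atp1b2, -0.041 for Slc12a2 and -0.29 for Slc12a5, with Slc12a5 again the 1 call. Without PI WT replicate 4, the WT differences were -0.16, -0.14, -0.16 and -0.17 in the same order, and none was called.

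**Figure D2:**
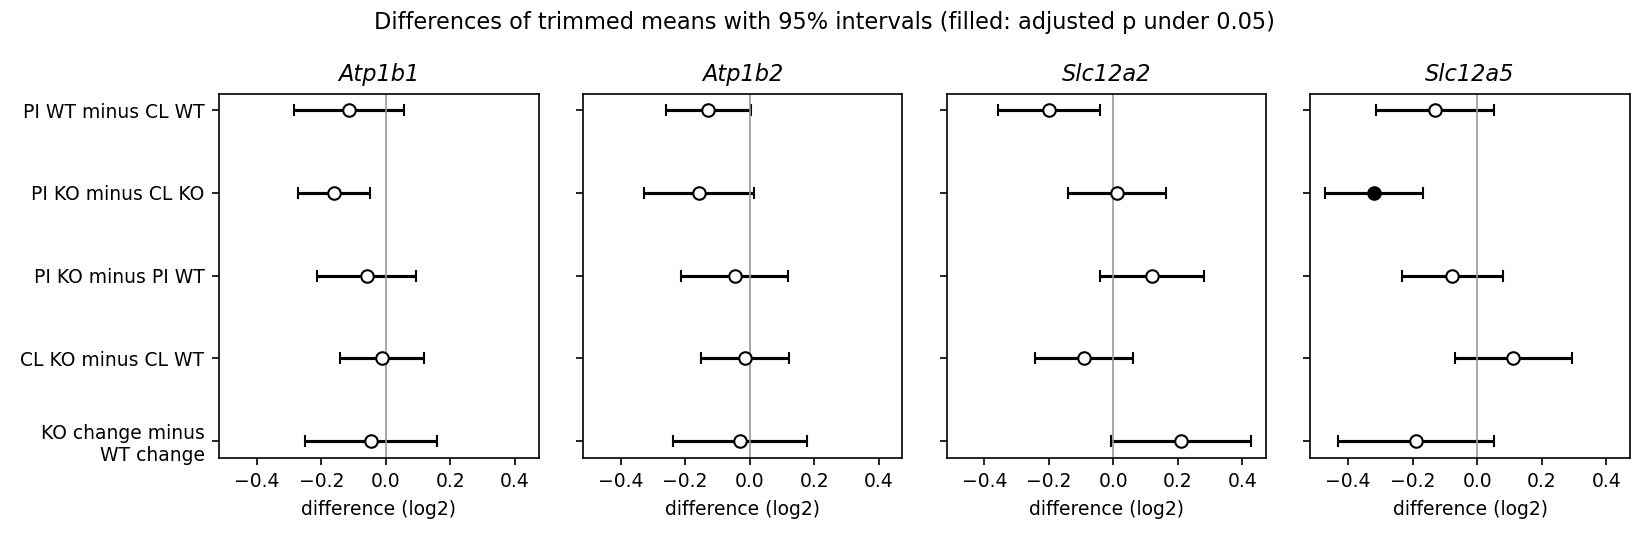
Difference of trimmed means on the log2 scale with its 95% interval for each gene and comparison, with a filled point where the adjusted p was under 0.05. The 1 filled point is Slc12a5 in PI KO minus CL KO, at -0.32.

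The difference between the genotypes in the PI effect was tested by the interaction, PI minus CL in KO less PI minus CL in WT. For Slc12a2 it was 0.21 (SE 0.10, 95% interval -0.0087 to 0.43, adjusted p = 0.992), and for Slc12a5 it was -0.19 (SE 0.12, 95% interval -0.43 to 0.053, adjusted p = 0.992). For Atp1b1 it was -0.046 and for Atp1b2 -0.030, with adjusted p of 0.992 and 0.994. The intervals of the 2 cotransporters run from about 0 to a difference larger than any side effect measured here among the 4 genes. Of all 14211 genes, the trimmed-mean test called 0 (0.0%), with 646 at an unadjusted p under 0.05. The same test with the animal as a block called 1 gene, which was not among the 4. Limma on the deposited values called 1940, with Slc12a2 (adjusted p = 0.0152) and Slc12a5 (adjusted p = 0.0437) among them, but it takes the drawn-in spread at face value. In simulated 2-group comparisons with no gene changed, limma on drawn-in values called at least 1720 genes, so these calls carry little weight.

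Because NKCC1 and KCC2 move chloride in opposite directions, the log2 ratio of Slc12a2 to Slc12a5 was also read within each library from the deposited values, as a description with no test. In CL KO it was -0.99, -0.76 and -0.64 (lowest, median, highest), and in PI KO it was -0.55, -0.46 and -0.39. The KO ratios did not overlap and were higher in PI. How often the ratios of other gene pairs do so was not counted. Of single genes, 17.2% were lower in PI KO without overlap, Slc12a5 among them. In CL WT the ratio was -0.70, -0.57 and -0.49, and in PI WT it was -0.87, -0.62 and -0.49, with PI higher in 3 animals and lower in 3. The ratio of the pump subunits, Atp1b1 to Atp1b2, had a median between 3.67 and 3.71 in each of the 4 groups. It was higher in PI in 4 of 6 WT animals and 3 of 6 KO animals.

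**Figure D3:**
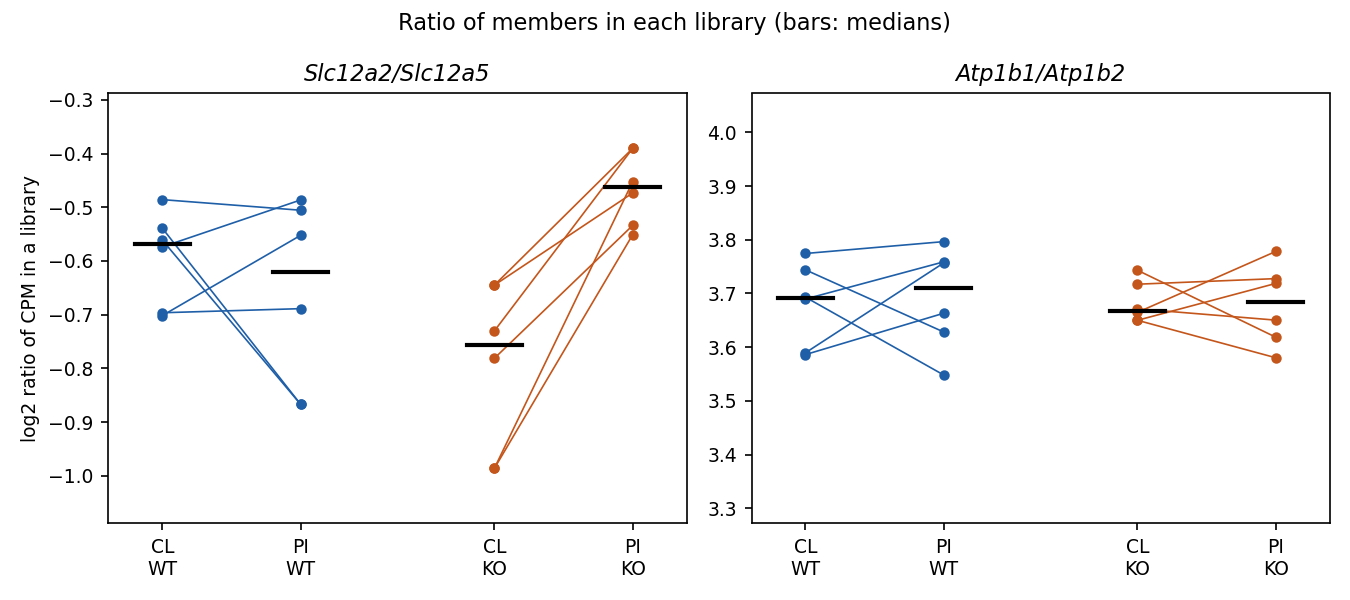
Log2 ratio of CPM within each library for Slc12a2 to Slc12a5 (left) and Atp1b1 to Atp1b2 (right), with the CL and PI libraries of an animal joined (blue WT, orange KO) and group medians as bars. The cotransporter ratio in KO does not overlap between CL and PI and is higher in PI, and the pump subunit ratio has no common direction. Overlap was not counted for the ratios of other gene pairs.

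Between genotypes, none of the 4 genes was called, and the deposited values of KO and WT overlapped for each of them on both sides. In PI, the background was 3 called of 14452 genes (0.0208%), and 14.1% of genes had values that did not overlap. In CL it was 4 of 14323 (0.0279%), and 13.5% did not overlap. None of the 4 had an unadjusted p under 0.05 in either comparison.

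In the table of the PI libraries, Slc12a2 stood at 7.02 ± 0.015 log2 CPM in PI KO and 6.90 ± 0.077 in PI WT (SE, n = 6 each), a difference of 0.12 (95% interval -0.041 to 0.28, adjusted p = 0.868). Of its 6 deposited PI KO values, 4 lay above every deposited PI WT value. Slc12a5 stood at 7.49 ± 0.048 in PI KO and 7.56 ± 0.060 in PI WT, a difference of -0.077 (95% interval -0.23 to 0.079, adjusted p = 0.910). Atp1b1 differed by -0.060 (95% interval -0.21 to 0.095) and Atp1b2 by -0.047 (95% interval -0.21 to 0.12).

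In the table of the CL libraries, Slc12a5 stood at 7.75 ± 0.061 in CL KO and 7.63 ± 0.087 in CL WT, a difference of 0.11 (95% interval -0.069 to 0.29, adjusted p = 0.917). Its highest deposited values belonged to CL KO, where 3 lay above every deposited CL WT value. The recovered second-highest CL WT value was 7.81, above the 7.78 of CL KO replicate 4, so this count holds for the deposited values only. Slc12a2 stood at 6.95 ± 0.072 and 7.04 ± 0.031, a difference of -0.091 (95% interval -0.24 to 0.060, adjusted p = 0.925). Atp1b1 differed by -0.013 (95% interval -0.14 to 0.12) and Atp1b2 by -0.015 (95% interval -0.15 to 0.12). For Atp1b2, the gene with miR-7 seed matches, these intervals run from -13.7% to 8.63% in PI and from -9.98% to 8.83% in CL. The CL libraries also enter the comparisons of PI with CL, so the genotype values in CL and the side values are not independent.

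Atp1b3, another beta subunit of the pump, differed between PI and CL by 0.18 in WT (SE 0.070, adjusted p = 0.134) and by -0.089 in KO (SE 0.086, adjusted p = 0.580), and so did not pass the test in either genotype.

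Of 14 genes listed as other pump subunits and partners, 9 could be read, Atp1b3 among them. The trimmed-mean test called 0 of the 9 in WT, where 6 had an unadjusted p under 0.05 (23.9% of all genes did). It called 0 higher and 2 lower in KO. The KO calls were Fxyd7, a brain regulator of the pump, which fell by 1.09 (adjusted p = 0.00234), and Nkain4, a pump-interacting protein, which fell by 0.72 (adjusted p = 0.0121). In WT, Fxyd7 differed by -0.61 (adjusted p = 0.0632) and Nkain4 by -0.65 (adjusted p = 0.0636). The difference between genotypes was not called for any of the 9. The list's median log2 difference was 0.12 in WT and -0.17 in KO.

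Of 6 other genes listed from the cotransporter family, 3 could be read, and the trimmed-mean test called 0 of them in either genotype. An unadjusted p under 0.05 was found for 1 in WT and 2 in KO, beside 23.9% and 24.9% of all genes. Slc12a4 (the potassium-chloride exporter KCC1) differed by 0.28 in WT and 0.45 in KO (adjusted p = 0.217 and 0.0930). Slc12a7 (KCC4) differed by 0.86 and 0.81 (adjusted p = 0.135 and 0.112), and Slc12a9 by 0.0037 and 0.38 (adjusted p = 0.994 and 0.248). The list's median log2 difference was 0.28 in WT and 0.45 in KO.

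Of 14 regulators of these cotransporters, mostly the WNK kinases, their partner kinases and the ubiquitin ligase parts that act on them, 13 could be read. Klhl2, a substrate adaptor for WNK kinases, rose in WT by 0.38 (SE 0.063, adjusted p = 0.00241) and differed by 0.28 in KO (adjusted p = 0.0890). The kinases Wnk1, Wnk2, Wnk3, Stk39 and Oxsr1 were not called in either genotype, with differences from -0.20 to -0.039 in WT and from -0.24 to -0.014 in KO. In WT, 5 of the 13 had an unadjusted p under 0.05, with Wnk3 (adjusted p = 0.0696) and Oxsr1 (adjusted p = 0.0841) among them. In KO none of the 13 was called, while 3 had an unadjusted p under 0.05. The shares of all genes with such a p were 23.9% in WT and 24.9% in KO.

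Of 31 other genes of ion and water transport, 28 could be read, and 3 rose and 5 fell in WT while 2 rose and 4 fell in KO. Aqp4, the water channel of astrocyte endfeet, rose by 0.27 in WT (adjusted p = 0.0125) and 0.41 in KO (adjusted p = 0.0140). Lrrc8a, the core subunit of the volume-regulated anion channel, rose by 0.40 in WT (adjusted p = 0.0403) and 0.30 in KO (adjusted p = 0.0195). The plasma membrane calcium pumps Atp2b1 and Atp2b2 fell in both genotypes, by 0.38 and 0.32 in WT and by 0.30 and 0.39 in KO. Called in WT were also the calcium pump Atp2b3 (-0.21), Lrrc8b (-0.29), a further subunit of the anion channel, the sulfonylurea receptor Abcc8 (-0.35) and the sodium-bicarbonate carrier Slc4a10 (0.29). Their KO differences had the same signs without passing the test, at -0.23 (adjusted p = 0.0628), -0.19 (0.0879), -0.54 (0.0584) and 0.22 (0.0529) in the same order. Called in KO were also the calcium pump Atp2b4 (-0.45) and the sodium-calcium exchanger Slc8a2 (-0.48), which in WT differed by -0.13 (adjusted p = 0.241) and -0.24 (adjusted p = 0.122). No gene of the 4 lists was called between genotypes on either side or in the interaction.

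**Figure D4:**
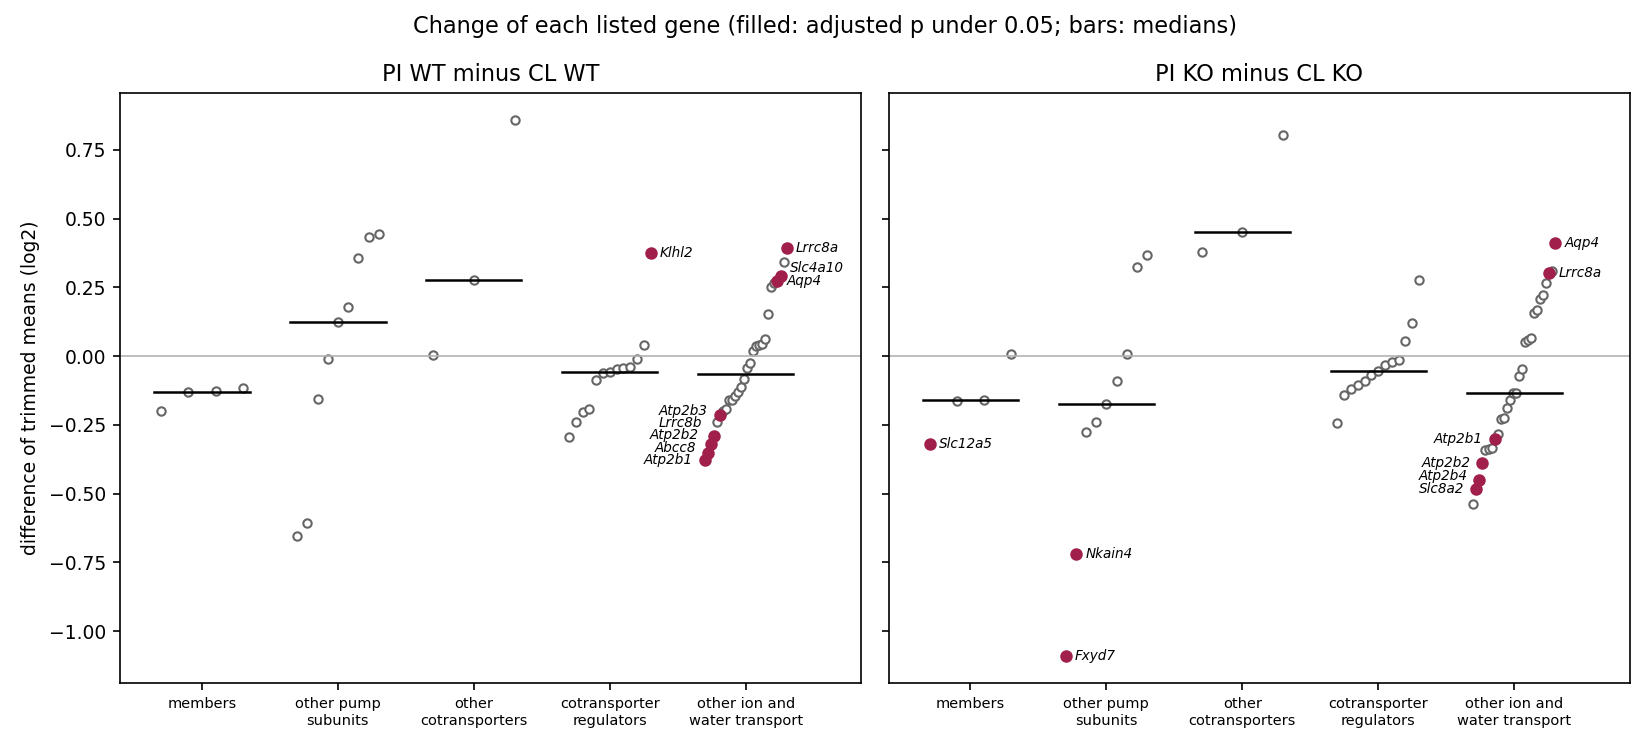
Difference of trimmed means (log2 scale) between PI and CL for the 4 genes and the 4 lists, each point a gene, filled and named where the adjusted p was under 0.05, with bars for list medians. In the KO panel Slc12a5 is named at -0.32 and the pump partner Fxyd7 lies lowest at -1.09, while no gene of the sodium pump list is named in the WT panel. Atp2b1 and Atp2b2 are named below 0 in both panels.

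The libraries are bulk tissue, in which fewer cells of a type and less RNA per cell cannot be told apart. Of 12 neuron markers, 0 rose and 4 fell in WT, while 1 rose and 4 fell in KO. Their summed level was 10098 to 10721 CPM in CL WT and 8711 to 9549 in PI WT, and it was 10083 to 10440 in CL KO and then 8428 to 9270 in PI KO. Of 10 astrocyte markers, 4 fell in WT and 2 in KO, with summed levels of 8482 to 9000 and 7225 to 7700 CPM in CL and PI of WT. In KO the astrocyte sums were 8543 to 9043 CPM in CL and 7028 to 7809 in PI. The 7 reactive astrocyte markers rose in both genotypes. Enpp2 was the 1 of 3 readable choroid plexus markers that was called, lower in both. With Ttr and others of that list not analysed, choroid plexus content cannot be told from Enpp2 alone. Oligodendrocyte markers summed to 2152 to 2347 CPM in CL WT and 1507 to 2119 in PI WT, and to 1715 to 2331 in CL KO, with 1660 to 1884 in PI KO.

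With deposited values set against the summed neuron markers of the same library, Slc12a5 was lower in PI in 6 of 6 KO animals, by 0.023 to 0.27 on the log2 scale (median difference -0.095). In WT this relative level was lower in 2 animals and higher in 4 (median 0.0092). Atp1b1 relative to the summed neuron markers was higher in PI in 6 of 6 WT animals (median 0.060). In KO it was higher in 5 of 6 animals (median 0.037). This is the opposite sign to its CPM, but the sum gives most weight to the most abundant markers. The median log2 difference of the 12 neuron markers was -0.14 in WT and -0.13 in KO. Beside it stood -0.12 and -0.16 for Atp1b1, and -0.13 and -0.32 for Slc12a5. Single neuron markers in KO ran from -0.59 (Camk2a) to 0.38 (Gad2), with Snap25 and Nefl each at -0.31. A fall of the size of Slc12a5 was thus also found among the neuron markers. Atp1b2 relative to the summed astrocyte markers was higher in PI in 6 of 6 WT animals (median 0.11) and 3 of 6 KO animals (median 0.062). The 10 astrocyte markers had a median log2 difference of -0.20 in WT and -0.12 in KO, beside -0.13 and -0.16 for Atp1b2. Slc12a2 relative to the neuron markers was higher in PI in 3 of 6 WT animals (median -0.0057) and 6 of 6 KO animals (median 0.21). Relative to the astrocyte markers, Slc12a2 had medians of 0.041 in WT (higher in PI in 5 of 6 animals) and 0.25 in KO (6 of 6). The neuron and astrocyte sums were both lower in PI KO than in CL KO, while the CPM of Slc12a2 differed by 0.0099 (log2 scale). Any gene of unchanged CPM would likewise be higher against these sums, so the KO counts restate the fall of the markers. Relative to the oligodendrocyte markers, its medians were 0.24 in WT (higher in 4 of 6) and 0.22 in KO (5 of 6). Relative to the endothelial markers, the signs differed, with a median of -0.14 in WT (lower in PI in 5 of 6 animals) and 0.15 in KO (higher in 5 of 6). The part of cell makeup in the differences of the 4 genes was not tested beyond these ratios.

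Across libraries the 4 genes did not share a single pattern. Over the 12 libraries of each table, which share scaling and the split into CL and PI, Pearson's r between Atp1b1 and Slc12a5 was 0.37 in WT and 0.96 in KO. Slc12a2 had r of 0.38 to 0.64 with the others in WT and -0.48 to -0.37 in KO. Likeness to a gene was taken as the smaller of the r values in the 2 tables, among 13359 other genes. Closest to Slc12a5 were Arid1a and Map1a (each 0.91), Zbtb7c (0.90), Per1 (0.89) and Prdm2 (0.88). Among the closest to Atp1b1 were Rap1gds1 (0.92), Ank (0.92), Snrpn (0.90) and Gm7292 (0.89). Closest to Atp1b2 were Vamp1 (0.89), Asrgl1 (0.87), Atp2b2 (0.87), Syt2 (0.85) and Man2a2 (0.84), and closest to Slc12a2 were Sptlc2 (0.91), Vstm2a (0.89), Zfp804b (0.88), Cntnap3 (0.86) and Dbpht2 (0.85).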

How the data were processed

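Ribosome-depleted total RNA was sequenced in 24 libraries, and samples were grouped by title. The deposited values are log2 CPM, from the authors, in 4 tables of 12 libraries, 1 for each pair of groups, per the file headers. The build mm10 is named in the submitters' processing notes, and the aligner, counting method and scaling are not given in the sources used here. Each table was scaled on its own (the same library differed by a median of 0.0256 to 0.0364 between its tables), so tests stay within a table. Every value column matched 1 sample (0 unused columns).

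In 100% of genes the outer values of each group were tied at its quartiles, a step that no label records. Solving for the 4 inner values made 75.4% to 86.7% of low values whole reads, against 8.91% to 16.6% as deposited. A count test was not run, since 2 of 6 values per gene and group are lost. The test was a moderated trimmed-mean test: means of the 4 recovered values, Winsorized sums of squares, 6 degrees of freedom (12 for the interaction), limma 3.58.1 (R 4.3.3) empirical Bayes with a trend, two-sided, Benjamini-Hochberg over all genes of a table, called at an adjusted p under 0.05. On simulated data with no gene changed, 5.25% to 5.33% of genes had p under 0.05 and 0 were called. Libraries of an animal share its name in the labels, which pairs CL with PI; correlations of same-numbered deviations were -0.0051 to 0.22 in WT and -0.016 to 0.19 in KO. KO and WT numbers pair nothing. Replicates are separate animals.

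Alternatives were limma on deposited values, the animal or number as a replicate block in either test, centring on the median gene, a prior without trend, a robust prior, a filter at a mean of 1 log2 CPM, log2(CPM + 1), and, chosen after seeing the data, leaving out each library. Members and lists were chosen with earlier results of these data known. Named genes are the 4 members, called genes of each list, genes of small p or extreme change in a list, and the 5 genes of most like pattern. Outside this rule, chosen after their values were seen, are the 5 kinases of the regulator list and any other uncalled list gene, and Nme7, for its overlap with Atp1b1. A few genes that these rules name are not reported here, and the lists are counted without them. Descriptions used Python 3.11.15 with pandas 2.3.3 and numpy 2.4.6.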

Additional observations from a re-analysis of the deposited data

How the results depend on the processing

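Centring on the median gene, a prior without trend, a robust prior, the filter, log2(CPM + 1) and the trimmed-mean test with a replicate block kept the direction and the call of the 20 gene results, except those given in the report: Slc12a2 in WT (called with the block), Slc12a5 in KO (lost without a trend), and Atp1b1 (called) and Slc12a2 (-0.018) in KO after centring. Limma on deposited values called 8 further gene results and, with the replicate block, 9. Its counts of called genes, in the order side within WT, side within KO, genotype within PI, genotype within CL and interaction, were 6459, 6666, 2388, 2311 and 1940, and 6614, 6759, 1800, 1868 and 2216 with the block. The trimmed-mean test with the block called 6 between PI KO and PI WT, 85 between CL KO and CL WT and 1 for the interaction. Between genotypes the block joins replicate numbers that pair nothing, so the block counts there have no meaning as a paired test. Without a trend the side counts were 1015 in WT and 739 in KO. Leaving out each library gave 1084 to 1512 in WT, 840 to 1616 in KO, 2 to 4 and 3 to 7 between genotypes in PI and CL, and 0 for the interaction; the KO count was 840 without PI KO replicate 2, 932 without PI KO replicate 5 or CL KO replicate 5 and 948 without PI KO replicate 3, and 7 in CL came without CL KO replicate 1. Differences near 0 changed sign: Slc12a2 in KO (-0.041 to 0.035), Atp1b1 (-0.048 to 0.019) and Atp1b2 (-0.046 to 0.018) between CL KO and CL WT, and Atp1b2 in the interaction (-0.073 to 0.0017). Except for the drawn-in spread that limma reads on deposited values, the cause of these shifts was not tested. With 6 animals a group, the intervals allow genotype differences of about the size of the side differences seen.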
